A study of Mus musculus with 6 samples.

Results

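The genes of the TGF-β and BMP pathway were chosen by name, with earlier results of these data known. They were 50 of the 56748 genes in the count table, and 49 of them had enough counts to be tested. They comprise 15 ligands, 12 receptors and co-receptors, 8 SMADs, 7 secreted antagonists and follistatin family members, 4 latent TGF-β binding proteins and 4 ID genes. The libraries were 6 cultures that the study names primary osteocytes, 3 labelled WT and 3 labelled cKO. The mice for WT are named C57BL/6 in one place of the methods and C57BL/6J in another. Those for cKO carry *Gsdmd* fl/fl and DMP1-Cre, a Cre recombinase driven by the dentin matrix protein 1 promoter. Cells were taken from the long bones of 7-week-old mice after the marrow had been flushed, cultured for 7 days, and stimulated with LPS at 10 ng/mL for 3 h and then with aluminum hydroxide at 20 µg/mL for 3 h. No unstimulated culture was analysed here, and the comparison is between genotypes after both agents. Nothing in the labels says whether the replicates came from separate mice, so p-values measure the spread between these cultures, which may be technical.

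TGF-β, activins, BMPs and GDFs are secreted dimers that bring together type I and type II receptor kinases. TGF-β and activin receptors phosphorylate SMAD2 and SMAD3, BMP receptors phosphorylate SMAD1, SMAD5 and SMAD9, and both groups of SMADs enter the nucleus with SMAD4. Latent binding proteins hold TGF-β in the matrix, noggin, gremlin and the chordins bind BMPs, follistatins bind activins, and the ID genes are direct BMP targets. In bone, TGF-β stored in the matrix is released during resorption, and BMPs drive osteoblast differentiation.

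Some facts of the libraries touch every value below. The library totals lay between 39566835 and 49734046 counts. *Gsdmd* itself was counted 609, 699 and 549 times in WT and 885, 937 and 1045 times in the libraries labelled cKO, where it passed as higher (log2 fold change 0.69, adjusted p = 2.27e-06). The gene count pools all exons, so it does not check the deletion of the floxed exons, and every direction rests on the label. *Xist* was at 0 to 4 counts in WT and at 44817 to 51216 counts in the libraries labelled cKO, where *Ddx3y*, *Eif2s3y*, *Kdm5d* and *Uty* were all at 0, so the sex of the cells and the genotype cannot be told apart, although the methods call the mice matched for sex. The 12 macrophage markers were all higher in the libraries labelled cKO, and their summed level rose from 1192 to 1345 CPM (counts per 1000000, scaled by the TMM method) to 6319 to 6625 CPM. Of the 6 smooth muscle markers 5 were lower, and their sum went from 1145 to 1335 CPM down to 493.5 to 553.7 CPM. Of 7 tested chondrocyte markers 6 were higher and 1 lower (median log2 fold change 1.90), among them *Acan*, which went from 2 to 8 counts in WT up to 782 to 922 counts, while *Col2a1* was the lower one. Of 8 fibroblast markers 1 was higher and 6 lower (median -0.53), and of 6 tested osteoblast markers 2 were higher and 4 lower (median -0.40). Of 8 osteocyte markers 3 passed the filter on low counts, where *Fam20c* was higher, *Pdpn* was lower and *Irx5* did not pass (log2 fold changes 0.45, -0.28 and 0.30). *Dmp1* and *Sost*, which define osteocytes, reached at most 6 and 0 counts in any library. *Phex*, *Mepe* and *Fgf23* did not pass the filter either, with at most 22, 2 and 34 counts. In bulk RNA fewer cells of a type and less RNA per cell cannot be told apart, and the part of these shifts in the results was not tested.

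Of the 49 tested pathway genes, 15 rose and 22 fell from WT to the libraries labelled cKO, with 0.05 as the limit on the adjusted p-value (edgeR, quasi-likelihood F test, Benjamini-Hochberg over the whole table), and 12 did not pass. This is 75.5% of the tested members, where 39.3% of the 17146 tested genes passed (20.1% higher and 19.2% lower). Among genes with a mean of at least 10 CPM the shares were 75.6% of 41 members and 49.6% of 9443 genes, and with the fold limit named next they were 12.2% and 6.02%. With a log2 fold change of at least 1 in size as a second limit, 3 members were higher (*Gdf10*, *Gdf15* and *Chrdl1*) and 5 lower (*Gdf6*, *Inhbb*, *Grem1*, *Fstl3* and *Id4*), which is 16.3% of the tested members against 11.2% of all tested genes (6.56% higher and 4.64% lower). The median log2 fold change of the members was -0.08 and that of all tested genes 0.01, and the median size of the change was 0.37 and 0.25. The libraries of the 2 genotypes did not overlap for 39 of the 49 members, 16 above and 23 below WT, where 49.2% of all tested genes did not overlap (25.3% above and 23.9% below). Most members therefore differed, in both directions, and by less than a factor of 2.

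**Figure D1:**
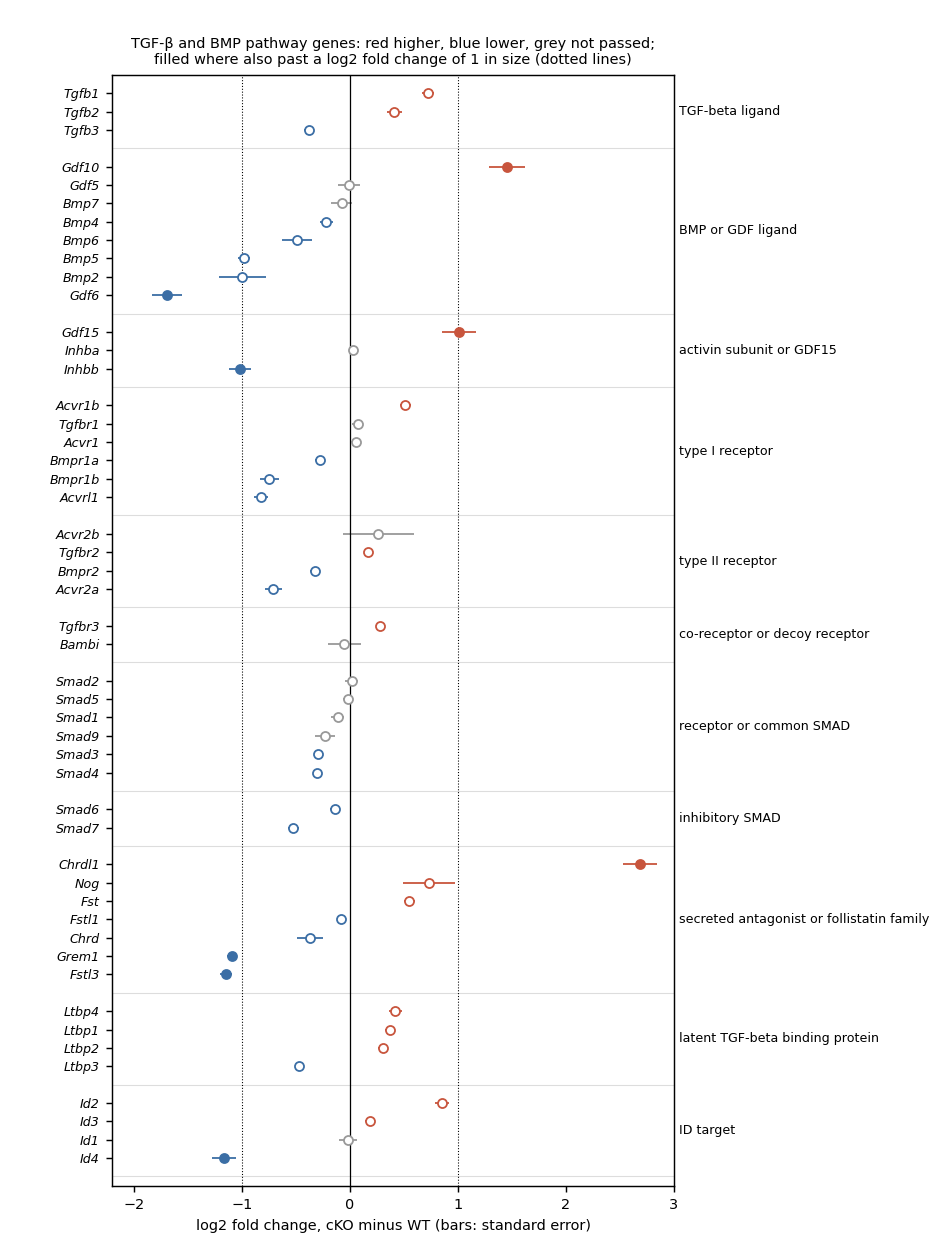
Log2 fold change (libraries labelled cKO minus WT) of the 49 tested members on the horizontal axis, with bars for the standard error, grouped by role; red is higher, blue lower and grey not past an adjusted p-value of 0.05. Filled points mark the 8 members also past a log2 fold change of 1 in size, from -1.70 for *Gdf6* to 2.68 for *Chrdl1*.

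The stretch of DNA before the transcription start is shown for the members with the largest evidence of change, since SMAD proteins bind short motifs there. The 6 members with the smallest p-values past both limits were *Grem1*, *Fstl3*, *Chrdl1*, *Gdf6*, *Id4* and *Inhbb*, and the RefSeq promoter table, on build GRCm38.p6, held *Grem1*, *Fstl3*, *Id4* and *Inhbb*. The 250 bases before the start are printed 5′ to 3′ on the strand of the gene, at chr2:113758649-113758898 (minus strand) for *Grem1*, chr10:79777024-79777273 (plus strand) for *Fstl3*, chr13:48260866-48261115 (plus strand) for *Id4* and chr1:119422249-119422498 (minus strand) for *Inhbb*. Capitals mark the SMAD half-site GTCTG or its reverse complement CAGAC, and GGCGCC, a GC-rich motif bound by BMP SMADs, which reads the same on both strands.

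*Grem1*: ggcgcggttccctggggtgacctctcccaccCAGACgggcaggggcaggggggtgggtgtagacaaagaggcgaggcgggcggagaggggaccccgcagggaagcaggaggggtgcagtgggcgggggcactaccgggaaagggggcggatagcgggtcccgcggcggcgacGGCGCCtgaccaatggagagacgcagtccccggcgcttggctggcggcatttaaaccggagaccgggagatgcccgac

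*Fstl3*: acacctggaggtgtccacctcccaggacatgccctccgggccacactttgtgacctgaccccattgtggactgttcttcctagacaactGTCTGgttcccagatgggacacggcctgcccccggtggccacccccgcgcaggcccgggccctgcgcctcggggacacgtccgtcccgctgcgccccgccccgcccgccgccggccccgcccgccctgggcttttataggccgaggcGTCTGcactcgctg

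*Id4*: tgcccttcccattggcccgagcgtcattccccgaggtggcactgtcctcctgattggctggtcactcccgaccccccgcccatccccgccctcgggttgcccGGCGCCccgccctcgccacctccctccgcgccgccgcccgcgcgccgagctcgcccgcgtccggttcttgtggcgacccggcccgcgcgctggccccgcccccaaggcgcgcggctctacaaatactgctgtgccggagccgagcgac

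*Inhbb*: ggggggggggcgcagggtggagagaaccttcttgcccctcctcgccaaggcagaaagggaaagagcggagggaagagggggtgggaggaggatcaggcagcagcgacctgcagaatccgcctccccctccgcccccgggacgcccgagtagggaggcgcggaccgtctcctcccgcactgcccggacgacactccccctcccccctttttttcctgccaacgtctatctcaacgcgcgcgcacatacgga

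*Grem1* held 1 GGCGCC and 1 CAGAC, beginning 78 and 219 bases before the start. *Fstl3* held GTCTG at 161 and 14 bases, *Id4* held GGCGCC at 148 bases, and *Inhbb* held no match. Over the 32851 promoters of the table, 9.59% held GGCGCC and 42.2% held the half-site in this window, and so did 11 and 20 of the 43 promoters listed for 34 of the members. The palindrome GTCTAGAC, which contains no whole half-site as searched here, was in 0 of these 43 and in 0.167% of all promoters. The printed windows were 68.0% to 75.6% G and C, and the shares were not matched for base content. These matches describe the sequence and do not show binding.

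Among the 3 TGF-β ligands, *Tgfb1* and *Tgfb2* rose and *Tgfb3* fell in the libraries labelled cKO. *Tgfb3* was the most abundant per gene length, at 96.4, 95.6 and 100.8 CPM in WT and 75.2, 75.3 and 75.0 CPM in the libraries labelled cKO (log2 fold change -0.38, standard error 0.046, adjusted p = 3.32e-06). *Tgfb1*, the main isoform of bone matrix and also made by macrophages, went from 66.2 ± 4.91 to 108.9 ± 2.96 CPM (SD, n = 3 each), a log2 fold change of 0.72 (adjusted p = 8.28e-09). *Tgfb2* went from 39.2 ± 4.03 to 52.2 ± 3.13 CPM (SD, n = 3 each; log2 fold change 0.41). Per kilobase of gene length, *Tgfb3* made up 57.3% to 60.3% of the 3 ligands in WT, against 41.2% to 42.8% in the libraries labelled cKO, and *Tgfb1* 25.6% to 27.6% and 40.4% to 41.3%. *Tgfb3* was thus the leading ligand in WT, and *Tgfb1* and *Tgfb3* stood at a like level in the libraries labelled cKO. The summed level of the 3 ligands per kilobase was 46.9 to 49.8 CPM in WT, against 51.9 to 54.0 CPM in the libraries labelled cKO.

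Of the BMP and GDF ligands, 5 of 8 tested genes fell and 1 rose. *Gdf6*, a ligand of joint and skeletal patterning, stood at 14.9, 15.7 and 12.2 CPM in WT and at 3.64, 4.78 and 4.80 CPM in the libraries labelled cKO, which is -1.70 ± 0.14 as log2 fold change and standard error (adjusted p = 2.07e-08). *Gdf10*, also called BMP3B, moved the other way, from 6.27, 4.82 and 3.45 CPM to 12.3, 15.4 and 12.4 CPM (log2 fold change 1.45, standard error 0.17, adjusted p = 1.81e-06). The WT libraries spread widely for *Gdf10*, and the lowest library labelled cKO was still above the highest WT library. *Bmp5* fell from 59.7 ± 2.63 to 30.2 ± 0.609 CPM and *Bmp2*, an osteogenic ligand induced in early bone formation, from 3.47 ± 0.373 to 1.74 ± 0.307 CPM (SD, n = 3 each). Their log2 fold changes, -0.98 for *Bmp5* (adjusted p = 1.69e-10) and -0.99 for *Bmp2* (adjusted p = 0.00154), lay just under the second limit. *Bmp2* passed this limit in 7 of 14 alternatives and *Bmp5* in 1. *Bmp4*, the BMP or GDF ligand with the highest level per gene length, was at 38.3, 38.8 and 38.2 CPM in WT and 34.2, 34.0 and 30.9 CPM in the libraries labelled cKO (log2 fold change -0.22, adjusted p = 0.00959). *Bmp6* had a log2 fold change of -0.49 (adjusted p = 0.00954). These 2 smaller falls were each lost when 1 library was left out, *Bmp4* without cKO replicate 3 (adjusted p = 0.0703) and *Bmp6* without cKO replicate 2 (adjusted p = 0.0526). *Bmp7* and *Gdf5*, the latter a ligand of joint formation, did not pass, with log2 fold changes of -0.08 and -0.01 and libraries that overlapped. *Bmp3* was not tested, with 4, 2 and 2 counts in WT and 0 in each library labelled cKO, where 3 counts would be 0.066 to 0.0754 CPM. Summed per kilobase, *Bmp2* to *Bmp7* were at 38.0 to 38.7 CPM in WT, against 26.7 to 27.8 CPM in the libraries labelled cKO.

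*Inhba*, the subunit of activin A, was the most abundant ligand of all per gene length and did not pass, at 905.4, 870.2 and 940.4 CPM in WT and 947.3, 879.6 and 938.5 CPM in the libraries labelled cKO (log2 fold change 0.03, standard error 0.039). *Inhbb*, the subunit of activin B, was at 17.7, 16.1 and 14.9 CPM in WT and at 8.01, 7.77 and 8.37 CPM in the libraries labelled cKO. Its log2 fold change was -1.01 (standard error 0.10, adjusted p = 3.06e-07). *Gdf15*, a stress-induced member of the family that signals through a receptor of its own, was at 26.0, 17.4 and 13.1 CPM in WT and at 37.4, 43.1 and 33.6 CPM in the libraries labelled cKO. Its log2 fold change was 1.01 (standard error 0.16, adjusted p = 6.49e-05). Both subunit and stress ligand sat close to the second limit. *Gdf15* fell under it without WT replicate 2, WT replicate 3 or cKO replicate 2 (0.94, 0.81 and 0.91), and *Inhbb* without WT replicate 1 or cKO replicate 2 and with scaling by library size only (-0.96, -0.99 and -0.99), and each kept an adjusted p-value below 0.05 there.

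**Figure D2:**
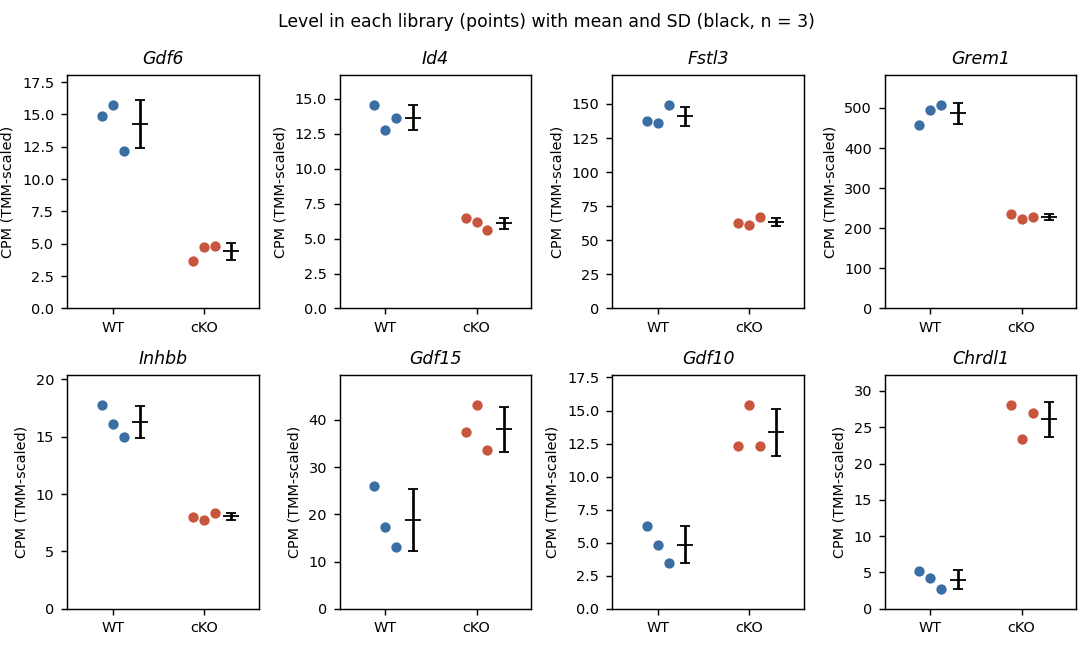
Level in CPM (vertical axes from 0) of the 8 members past both limits in each of the 3 WT and 3 cKO libraries, with the mean and SD beside the points. In every panel the genotypes are separate; *Gdf15*, *Gdf10* and *Chrdl1* have the widest relative spread in WT, where replicate 3 is the lowest.

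The receptors changed less than the ligands, and 0 of the 12 passed the second limit. Of the type I receptors 1 rose and 3 fell. *Bmpr1a*, the BMP receptor with the highest level per gene length, was at 165.7, 158.8 and 166.5 CPM in WT and 135.2, 128.4 and 142.3 CPM in the libraries labelled cKO (log2 fold change -0.27, adjusted p = 0.000128). The BMP receptor *Bmpr1b* fell more, from 19.4 ± 1.41 to 11.6 ± 0.263 CPM (SD, n = 3 each; log2 fold change -0.75). *Acvrl1*, or ALK1, which is known from endothelial cells and also carries BMP9 signals, fell from 47.1 ± 2.16 to 26.6 ± 1.69 CPM (SD, n = 3 each; log2 fold change -0.82, adjusted p = 1.38e-08). Beside this, 4 of 5 tested endothelial markers were lower and *Kdr* was higher (log2 fold change 2.04). The summed level of the endothelial markers was 6.4 to 6.8 CPM in WT and 6.3 to 6.7 CPM in the libraries labelled cKO. Their part was not tested. *Acvr1b*, the activin receptor ALK4, rose from 54.1, 51.9 and 51.9 CPM to 74.1, 76.8 and 74.4 CPM (log2 fold change 0.51, adjusted p = 1.24e-07). *Tgfbr1* and *Acvr1* did not pass, with log2 fold changes of 0.07 and 0.06.

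Among type II receptors the TGF-β receptor rose slightly while a BMP and an activin receptor fell. *Tgfbr2* was at 214.8, 216.4 and 223.5 CPM in WT and 245.0, 246.6 and 242.9 CPM in the libraries labelled cKO, a log2 fold change of 0.17 (adjusted p = 0.0023). *Bmpr2* fell from 229.4 ± 7.66 to 183.2 ± 6.59 CPM and *Acvr2a* from 34.8 ± 3.16 to 21.3 ± 1.27 CPM (SD, n = 3 each), log2 fold changes of -0.32 and -0.71. *Acvr2b* was scarce, at 42 to 98 counts per library, and did not pass (log2 fold change 0.26, standard error 0.33). The co-receptor *Tgfbr3*, or betaglycan, which presents TGF-β2 to the signaling receptors, was at 280.2, 277.8 and 276.2 CPM in WT and 340.6, 333.2 and 337.4 CPM in the libraries labelled cKO (log2 fold change 0.28, adjusted p = 8.07e-06). The decoy receptor *Bambi* did not pass (log2 fold change -0.05).

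The SMADs moved least, with 4 of 8 lower and 0 higher. *Smad4*, the common SMAD and the one with the highest level per gene length, was at 111.2, 111.0 and 112.5 CPM in WT and 91.2, 89.2 and 91.1 CPM in the libraries labelled cKO (log2 fold change -0.30, adjusted p = 2.22e-05). *Smad3* fell by a similar amount (log2 fold change -0.29, adjusted p = 1.9e-05), and *Smad1*, *Smad2*, *Smad5* and *Smad9* did not pass, at -0.11, 0.02, -0.02 and -0.23. *Smad7*, an inhibitory SMAD induced by TGF-β as a brake on its own receptor, showed the largest change of the 8, from 138.5, 123.3 and 125.6 CPM to 90.4, 89.9 and 88.6 CPM (log2 fold change -0.53, standard error 0.050, adjusted p = 1.42e-07). *Smad6*, the inhibitory SMAD of the BMP branch, had a log2 fold change of -0.14 (adjusted p = 0.0354). It lost its call in 7 of 14 alternatives, at adjusted p-values of 0.0598 to 0.124. These were library size only, no filter beyond at least 1 count, the replicate block, and leaving out WT replicate 1 or any one of the libraries labelled cKO.

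All 7 secreted antagonists and follistatin family members passed the first limit, 3 higher and 4 lower. *Grem1*, gremlin 1, which binds BMP2, BMP4 and BMP7, was at 457.5, 494.4 and 507.1 CPM in WT and at 235.4, 221.9 and 227.4 CPM in the libraries labelled cKO. On the log2 scale this was -1.09 with a standard error of 0.044 (adjusted p = 1.26e-12), the smallest p-value of all members. *Chrdl1*, chordin-like 1, a BMP antagonist, had the largest change, from 5.18, 4.25 and 2.65 CPM to 28.0, 23.4 and 26.9 CPM, 2.68 on the log2 scale with a standard error of 0.16 (adjusted p = 2.16e-10). *Chrdl1* lies on the X chromosome (mm39, 142068670 to 142177258). Of 544 tested X-linked genes 38 were higher and 27 lower at both limits, 11.95% beside 11.2% of all tested genes. At the first limit alone 44.5% of the X-linked genes passed, beside 39.3% of all tested genes. Their median log2 fold change was 0.00, and that of all tested genes 0.01. These figures describe the chromosome as a whole and not *Chrdl1* alone. For *Chrdl1*, sex and genotype cannot be told apart. *Nog*, noggin, was scarce and rose from 60 to 81 counts to 92 to 140 counts per library (log2 fold change 0.73, adjusted p = 0.0212), and *Chrd*, chordin, fell from 12.3 ± 1.87 to 9.54 ± 0.614 CPM (SD, n = 3 each; log2 fold change -0.37, adjusted p = 0.0203). *Nog* was lost without WT replicate 2 or cKO replicate 1 (adjusted p = 0.0523 and 0.124) and *Chrd* without WT replicate 1, WT replicate 2 or cKO replicate 2 (adjusted p = 0.0933, 0.0532 and 0.0868). Per kilobase, *Grem1* made up 96.5% to 97.7% of these 4 BMP antagonists in WT, against 88.1% to 89.6% in the libraries labelled cKO, and *Chrdl1* 0.314% to 0.670% and 5.80% to 6.44%. The rise of *Chrdl1* was therefore small beside the fall of *Grem1*, and the summed level of the 4 went from 114.3 to 125.2 CPM per kilobase in WT to 59.7 to 64.4 CPM per kilobase.

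The follistatin family split in the same manner. *Fstl3*, which binds activin, was at 137.2, 136.1 and 149.2 CPM in WT and at 62.6, 61.2 and 67.0 CPM in the libraries labelled cKO (log2 fold change -1.15, standard error 0.053, adjusted p = 6.71e-12). *Fst*, follistatin, rose from 91.1 ± 4.96 to 133.4 ± 2.03 CPM (SD, n = 3 each; log2 fold change 0.55, adjusted p = 4.86e-08). Per kilobase, *Fstl3* made up 72.7% to 76.2% of the pair in WT, against 46.4% to 48.6% in the libraries labelled cKO, so the order of these 2 activin binders was turned around. *Fstl1*, a secreted glycoprotein of mesenchymal cells that is named for its follistatin-like domain, had the highest level of all members per gene length. It stood at 2118, 2143 and 2176 CPM in WT and at 1993, 2014 and 2056 CPM in the libraries labelled cKO (log2 fold change -0.09, adjusted p = 0.03). This small difference was lost without cKO replicate 1 or 2 (adjusted p = 0.156 and 0.0982) and with scaling by library size only (adjusted p = 0.0797).

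**Figure D3:**
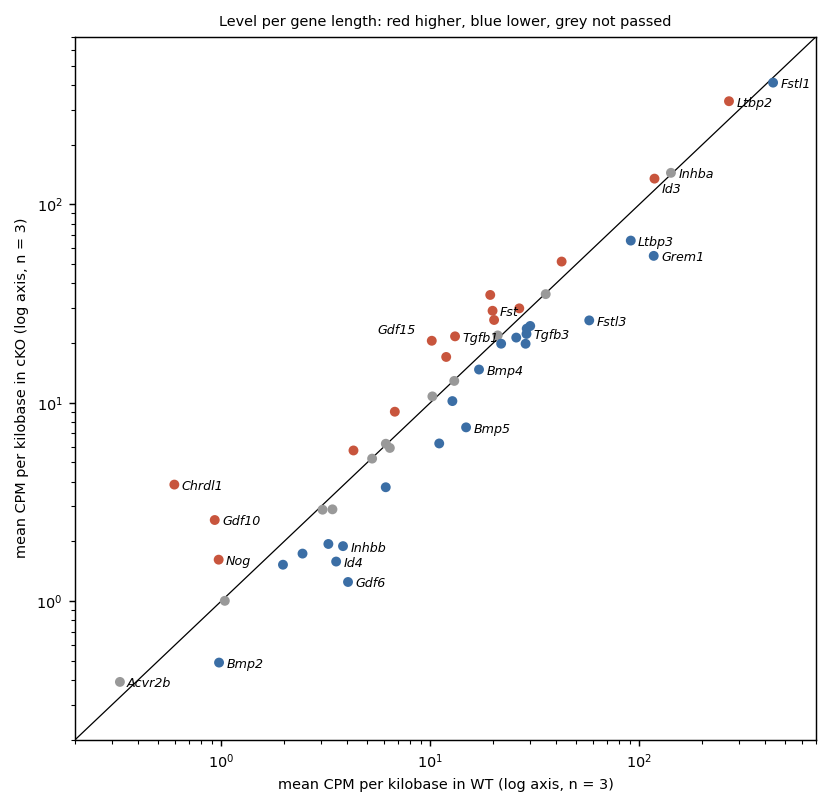
Mean level per kilobase of gene length in WT (horizontal) and in the libraries labelled cKO (vertical), both on log axes, for the 49 members with counts in both; the line marks equal levels, red is higher, blue lower and grey not passed. *Fstl1* is the highest (436.6 and 411.3 CPM per kilobase) and *Acvr2b* the lowest, and *Grem1* and *Fstl3* are the abundant genes farthest below the line.

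The latent TGF-β binding proteins, which apart from *Ltbp2* tether latent TGF-β to fibrillin fibers, all passed the first limit and none the second. *Ltbp2*, the most abundant, rose from 2167, 2070 and 2357 CPM to 2687, 2733 and 2719 CPM (log2 fold change 0.30, adjusted p = 6.06e-06). *Ltbp1* and *Ltbp4* rose by 0.37 and 0.42 on the log2 scale, and *Ltbp3* fell from 825.5 ± 46.6 to 595.8 ± 7.91 CPM (SD, n = 3 each; log2 fold change -0.47, adjusted p = 3.66e-08). *Ltbp2* differs from the other LTBPs in that it does not bind latent TGF-β.

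The ID genes, which encode dominant-negative helix-loop-helix proteins, did not move together. *Id3*, the most abundant per gene length, was at 225.1, 205.8 and 204.4 CPM in WT and 241.8, 249.9 and 232.9 CPM in the libraries labelled cKO (log2 fold change 0.19, adjusted p = 0.0031). *Id2* rose more, from 47.2 ± 5.08 to 85.2 ± 3.15 CPM (SD, n = 3 each; log2 fold change 0.85, adjusted p = 7.61e-09). *Id4* fell from 14.6, 12.8 and 13.6 CPM to 6.46, 6.16 and 5.64 CPM (log2 fold change -1.16, standard error 0.11, adjusted p = 1.86e-07). *Id1*, the BMP target most often used as a readout, did not pass, with a log2 fold change of -0.02 (standard error 0.080). The 4 ID genes thus ranged from a fall past the second limit to a rise just under it.

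Genes of the pathway outside the members were read from a list of 65, of which 47 were tested. Of these 10 were higher and 24 lower, 72.3% beside the 39.3% of all tested genes, with a median log2 fold change of -0.23. Of all tested genes with a mean of at least 10 CPM 49.6% passed, and most but not all of the 47 reached that level. *Nrros*, which anchors latent TGF-β on myeloid cells, rose from 5.85 ± 0.420 to 47.4 ± 4.55 CPM (SD, n = 3 each; log2 fold change 3.02, adjusted p = 2.08e-14), next to a median of 3.06 for the 12 macrophage markers. *Lrrc32*, or GARP, the related anchor of other cells, fell from 746.3 ± 49.2 to 406.9 ± 4.37 CPM (SD, n = 3 each; log2 fold change -0.88). Anchors of latent TGF-β thus went in opposite directions. *Bmp1*, a protease that cleaves procollagen and chordin, and *Fbn1*, fibrillin 1, had log2 fold changes of -1.08 and -0.74. *Fmod*, fibromodulin, which binds collagen and TGF-β, rose from 1794 ± 81.2 to 4093 ± 79.1 CPM (SD, n = 3 each; log2 fold change 1.19), and *Itgb8* and *Nbl1* rose by 0.88 and 0.37 on the log2 scale.

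Among 16 genes known to be induced by TGF-β, 1 was higher and 11 lower, with a median log2 fold change of -0.45, where 20.1% of all tested genes were higher and 19.2% lower. All 16 had a mean of at least 10 CPM, and of all tested genes at that level 49.6% passed in either direction. *Tagln*, a smooth muscle cytoskeletal gene, fell from 402.7 ± 18.6 to 134.5 ± 4.55 CPM and *Fn1*, fibronectin, from 44860 ± 1657 to 27150 ± 814.5 CPM (SD, n = 3 each), log2 fold changes of -1.58 and -0.72. *Ccn2*, which encodes a matricellular protein, had a log2 fold change of -0.57. The 1 higher gene was *Tgfbi*, which macrophages also express, from 31.1 ± 3.19 to 166.2 ± 7.58 CPM (SD, n = 3 each; log2 fold change 2.42). Of the 16 genes, *Tagln*, *Acta2* and *Cnn1* are also on the smooth muscle list and *Col1a1* on the osteoblast list. Among 10 BMP targets outside the members, 1 was higher and 6 lower, beside the same 20.1% and 19.2% of all tested genes, with a median of -0.43. *Runx2*, *Sp7* and *Alpl* of these 10 are also on the osteoblast list. The higher gene was *Alpl*, alkaline phosphatase (log2 fold change 0.68), and *Atoh8*, *Dlx6*, *Dlx3* and *Runx2* had log2 fold changes of -0.39, -2.02, -0.94 and -0.21, *Dlx6* on 4 to 41 counts per library. The count of 6 lower genes fell to 3 without cKO replicate 3 and to 4 without any other single library, with the replicate block or with at least 10 counts required in every library. The lists were chosen with earlier results of these data known. Their counts and medians describe these libraries without a test of the list itself.

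**Figure D4:**
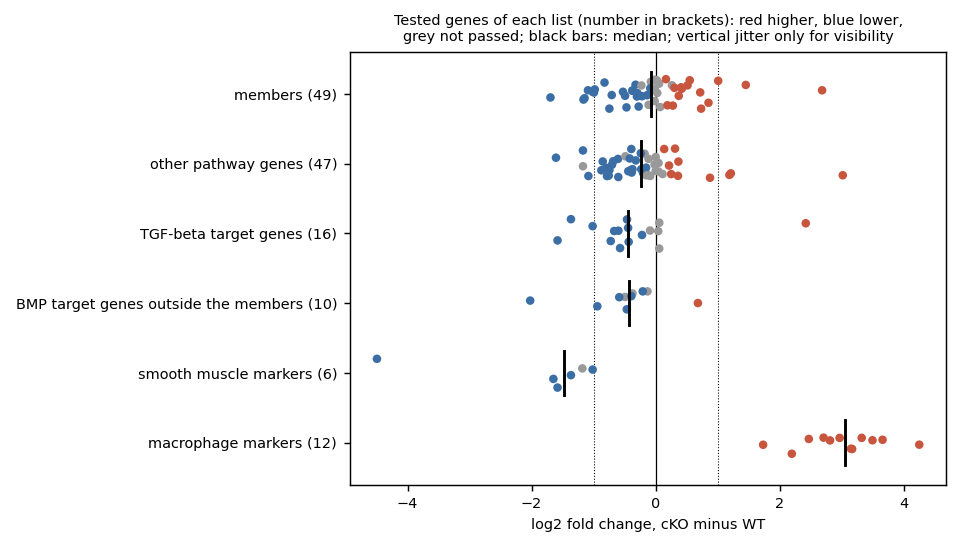
Log2 fold change (libraries labelled cKO minus WT) of every tested gene in 6 lists on the horizontal axis, 1 point a gene and a black bar at the median; red is higher, blue lower and grey not passed. The medians run from -1.47 for the smooth muscle markers and -0.45 for the TGF-β targets to -0.08 for the members and 3.06 for the macrophage markers.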

How the data were processed

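RNA was measured in 6 stimulated cultures that the study names primary osteocytes, 3 labelled WT and 3 labelled cKO. Libraries were grouped by the genotype in the sample records. Reads (paired ends of 150 bp) were trimmed by the authors, mapped to GRCm39 (mm39) with HISAT2 2.0.5 and assigned to genes with featureCounts. The labels and methods name different featureCounts releases and sequencers, and the strand setting is not given in the sources used here. The deposited table holds unnormalized counts and the length of each gene. Even numbers made up 63.4% to 65.7% of all values between 1 and 10. The sources used here do not say whether the mates of a pair were counted separately. If they were, printed counts and the floor of 3 counts stand for fewer fragments.

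From the deposited counts, edgeR 4.0.16 in R 4.3.3 was run on the whole table with filterByExpr, TMM scaling, glmQLFit and glmQLFTest, genotype being the only term, with Benjamini-Hochberg adjustment over 17146 genes. The standard error is the size of the log2 fold change divided by the square root of F. The coefficient of variation between replicates was 8.36%. CPM per kilobase divides by the deposited gene length, and 3 counts correspond to 0.0604 to 0.0772 CPM. Floors cover counting error only. Replicates differed by more than sampling noise (chi-square per gene of 4.8 to 13.9), so all 6 libraries were counted separately. The fit was tested on simulated data.

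The members and lists were chosen with earlier results of these data known. Values of every library are given for members past both limits and for the most abundant member per gene length of each role, and each other list is represented by at most 4 genes a direction, taken in order of p, and 2 genes that this would name are not reported here. The alternatives were RLE size factors, library size only, 2 other filters, DESeq2 1.42.0, limma-voom (limma 3.58.1), a replicate block, leaving out each library in turn, and, added after the data had been seen, counts halved and rounded up. Promoter sequences are those of RefSeq on GRCm38.p6, used for sequence only.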

Additional observations from a re-analysis of the deposited data

How the results depend on the processing

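Over 14 alternatives, 14 to 15 members were higher and 18 to 23 lower, and 2 to 3 and 4 to 7 passed the fold limit as well. No scaling moved the median log2 fold change of all tested genes outside -0.0029 to 0.0293. Among the BMP targets, 3 to 4 were lower when 1 library was left out (3 without cKO replicate 3, against 6 with all libraries), and 1 to 2 of them passed the fold limit; this count was 0 with at least 10 counts required in every library, a filter that removes *Dlx6*. Some members that did not pass changed sign. With library size only, the log2 fold change was 0.01 for *Gdf5*, 0.01 for *Smad5* and 0.0046 for *Id1*. Leaving out 1 library gave -0.07 to 0.04 for *Gdf5*, -0.01 to 0.06 for *Inhba*, -0.07 to 0.44 for *Acvr2b*, -0.13 to 0.02 for *Bambi*, -0.04 to 0.06 for *Smad2*, -0.04 to 0.01 for *Smad5* and -0.13 to 0.07 for *Id1*. The cause was not tested. *Bmp4*, *Bmp6*, *Smad6*, *Nog*, *Chrd* and *Fstl1* lost their call under at least 1 alternative, and *Smad9* gained one with RLE size factors (adjusted p = 0.0469) and without WT replicate 2 (adjusted p = 0.0128), by edgeR. *Bmp2* passed the fold limit in 7 alternatives: RLE size factors (-1.0), the replicate block (-1.0), DESeq2 (-1.01), limma-voom (-1.01), and without WT replicate 3 (-1.08), cKO replicate 2 (-1.02) or cKO replicate 3 (-1.11). *Bmp5* passed it without WT replicate 3 (-1.02). Halving the counts, chosen after seeing the data, left each of these list counts as it was.

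With the replicate number as a block, 15 members were higher and 21 lower, and *Smad6* was the one member that lost its call (adjusted p = 0.0612). Deviations of same-numbered libraries correlated at -0.005, 0.002 and -0.01, so no shared deviation in expression was seen. The labels do not say whether same-numbered cultures were prepared together. Genes with few counts, such as *Acvr2b* at 42 to 98, limit what can be seen.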
